A study of Mus musculus with 4 samples.

Results

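The forkhead (Fox), Sox, T-box (Tbx), Pax and Gata genes encode DNA-binding factors that direct cells of the embryo towards their fates. In this account they are the protein-coding genes of GENCODE M1, an annotation of the mouse mm9 assembly, whose symbol is Fox with a letter and a number, or Sox, Tbx, Pax or Gata with a number. Sox2 and Tbx3 were left out by that rule. The rule found 86 genes (42 Fox, 17 Sox, 12 Tbx, 9 Pax and 6 Gata) among 22225 protein-coding gene symbols. Symbols that the annotation spells otherwise, such as Foxf1a, do not meet it.

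KDM5C (also SMCX) is a demethylase of lysine 4 on histone H3, and its occupancy was profiled by ChIP-Seq in mouse epiblast-like cells (EpiLCs). The cells were XΔTsixY, that is, male with a truncated Tsix allele on their only X chromosome, of strain C57BL/6J per the labels, and were taken at day 2. The study's methods name another background for its mutant strains and a mixed one for the Kdm5c floxed strain, so the strain is uncertain. The 4 samples were an immunoprecipitate (IP) and an input for cells with intact Kdm5c (WT) and for cells whose Kdm5c was deleted (KO). The labels describe EpiLC conversion only, while the study's methods count day 2 after that stage, so the stage is uncertain. Both genotypes carried the Tsix truncation, and the study's methods give 1 KO IP sample against replicate WT samples, although other parts of the sources speak of duplicates, so the KO replicate number is not settled.

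The deposited data were lists of called peaks, with 6916 WT and 44 KO peaks on assembled chromosomes. Each genotype had 1 list without replicates, so no difference below has a replicate error and no test was made. The lists hold no read counts, so the depth behind a peak cannot be read from them, although the study's reporting form states a minimum depth for every sample. The lists hold no expression values, so the cell type could not be checked against its markers. A gene is called bound here when the midpoint of a WT peak lay within 1 kb of one of its annotated transcription start sites (TSSs).

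As background, each of the 5 families is named for its DNA-binding domain or a founding member: the forkhead domain, the HMG box of Sox factors, the T-box, the paired domain and the GATA-type zinc finger. Many of these genes are silent in early embryonic cells and are switched on in single lineages, while a subset, such as Foxo, Foxk and SoxC genes, is used in many tissues. Their promoters often lie in CpG islands, stretches where the CG dinucleotide has been kept at high density, and CpG islands are also where methylated lysine 4 of histone H3 is usually found.

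The sequences below show what such promoters hold. For each family, the bound gene of highest score was chosen, and for comparison the unbound gene with the highest CpG ratio. All are mm9 sequence, 5′ to 3′ on the strand of the gene, with every CG dinucleotide in capitals. The stretch of Sox30 (chr11:45793514-45793713, plus strand) is centred on the summit of its peak, upstream of the TSS, and held 17 CG dinucleotides in 200 bp. That of Foxp2 (chr6:14851180-14851348, plus strand) is the part of its peak just upstream of the 5′ end of the gene, with 15 in 169 bp. That of Pax5 (chr4:44717427-44717626, minus strand) is centred on a summit in an intron, with 12 in 200 bp.
Sox30: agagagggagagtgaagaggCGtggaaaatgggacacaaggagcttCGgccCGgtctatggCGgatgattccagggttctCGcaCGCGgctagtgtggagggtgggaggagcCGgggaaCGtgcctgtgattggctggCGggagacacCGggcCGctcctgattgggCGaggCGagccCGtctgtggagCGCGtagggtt
Foxp2: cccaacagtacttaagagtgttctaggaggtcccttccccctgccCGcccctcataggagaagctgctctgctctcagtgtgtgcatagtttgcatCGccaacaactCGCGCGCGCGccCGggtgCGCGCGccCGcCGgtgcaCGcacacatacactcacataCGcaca
Pax5: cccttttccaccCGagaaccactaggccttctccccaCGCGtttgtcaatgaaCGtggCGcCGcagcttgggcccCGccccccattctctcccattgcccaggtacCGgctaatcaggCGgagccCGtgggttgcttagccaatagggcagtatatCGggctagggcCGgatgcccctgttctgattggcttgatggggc

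The Gata5 stretch (chr2:180068791-180068990, minus strand) surrounds the summit of the weakest peak among the members, in a coding exon, and held 20 CG dinucleotides in 200 bp. The Foxk1 stretch (chr5:142877351-142877450, plus strand) is the 100 bp before the TSS of a gene with no peak, and held 19. This stretch was the densest in CG of the printed ones, but Foxk1 was chosen for its high CpG ratio. The stretches also differ in length and place, so bound and unbound sequence cannot be compared from them. For Tbx20, the highest-scoring Tbx gene, whose summit lay in a UTR, only 35 bp of the peak lay outside the UTR, and that short stretch is not printed.
Gata5: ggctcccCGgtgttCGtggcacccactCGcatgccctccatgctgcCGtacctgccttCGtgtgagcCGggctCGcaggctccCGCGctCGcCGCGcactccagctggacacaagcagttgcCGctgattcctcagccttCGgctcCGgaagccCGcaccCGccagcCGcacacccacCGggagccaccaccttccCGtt
Foxk1: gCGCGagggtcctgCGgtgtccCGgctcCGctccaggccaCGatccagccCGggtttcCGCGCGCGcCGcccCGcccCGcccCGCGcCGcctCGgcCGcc

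Of the 86 genes, 29 were bound, or 33.7% (exact Clopper-Pearson 95% interval 23.9 to 44.7%), against a background of 24.0% of all protein-coding genes. The lower end of the interval lies just under the background. Intervals here take genes as independent and cover counting error only. In these 5 families the bound genes were Foxa2, Foxb2, Foxd1, Foxd3, Foxe1, Foxe3, Foxj3, Foxk2, Foxl2, Foxn2, Foxo1, Foxo6, Foxp2, Foxp4 and Foxq1, then Sox4, Sox7, Sox8, Sox10, Sox11, Sox18, Sox21 and Sox30, then Tbx2, Tbx15, Tbx18 and Tbx20, and finally Pax5 and Gata5.

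Promoters rich in CG were bound more often throughout the genome, so the members were also set against promoters of like base composition. The CpG ratio is the number of CG dinucleotides over the number that the base composition gives, here over 500 bp on either side of the gene's 5′ end. The median ratio was 0.678 in the members and 0.549 in other genes. All genes were put in 20 bins of equal size by this ratio, and the share of bound genes among non-members in each bin was summed over the members. This CpG-matched count was 26.6 genes (30.9%), against the 29 counted. With all deposited peaks, members were therefore bound about as often as other promoters of similar CpG ratio, and matching on GC content in place of CpG ratio gave 29.5.

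**Figure D1:**
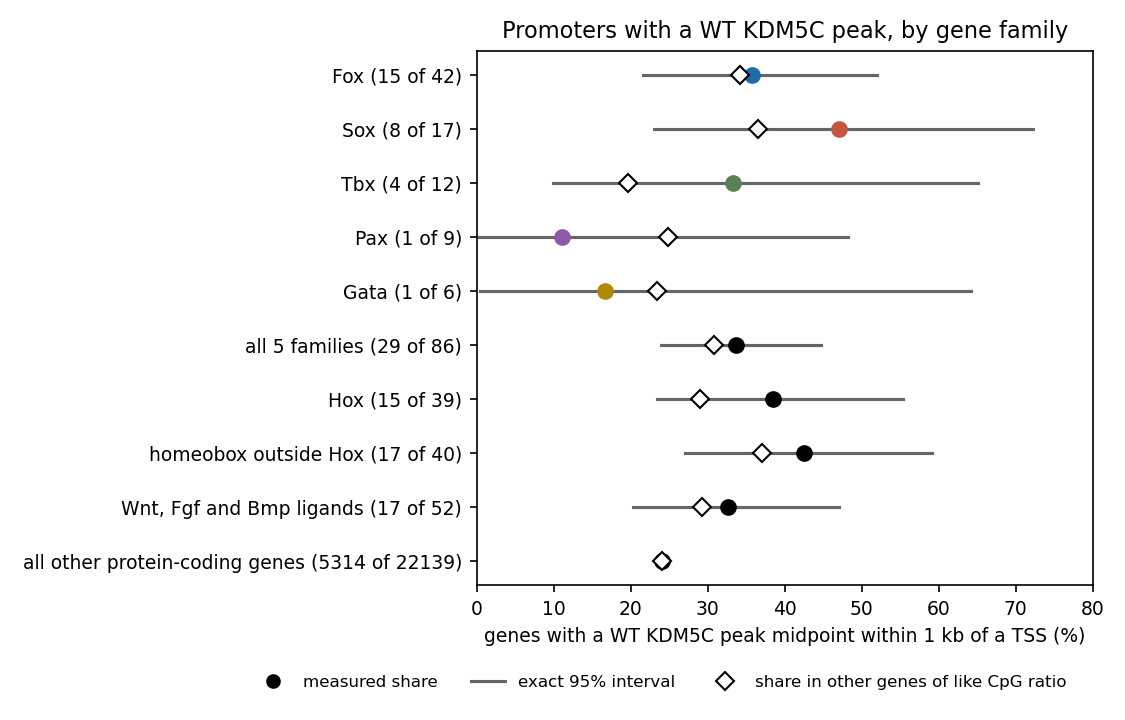
Share of genes (%) with a WT KDM5C peak midpoint within 1 kb of a TSS, for each family and for 4 comparison groups. Filled circles are the measured shares, bars are exact 95% intervals and diamonds are the shares in other genes of similar CpG ratio. Every family's interval includes its diamond, and Sox has the highest share, 47.1%.

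Among the families, Sox had the highest share and Pax the lowest. Of the Sox genes 8 of 17 (47.1%, interval 23.0 to 72.2%) were bound, against a CpG-matched count of 6.20. Of the Fox genes 15 of 42 (35.7%, 21.6 to 52.0%) were, against 14.4. At this limit the count of Fox genes, the largest family, was thus close to its CpG-matched count. Of the Tbx genes 4 of 12 (33.3%, 9.92 to 65.1%) were bound, against a CpG-matched 2.36. Pax had 1 of 9 bound (11.1%, 0.281 to 48.2%) against 2.24. Gata had 1 of 6 bound (16.7%, 0.421 to 64.1%) against 1.40. All 5 intervals overlap one another, so at these family sizes no family stood apart from another, and each family's interval also includes its CpG-matched share.

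Other developmental gene groups, taken by symbol, gave similar shares. Of 39 Hox genes, which pattern the body axis, 15 were bound (38.5%, CpG-matched 11.3). Of 40 homeobox genes outside the Hox clusters (Nkx, Lhx, Dlx and Irx genes among them), 17 were (42.5%, CpG-matched 14.8). Of 52 genes for Wnt, Fgf and Bmp ligands, 17 were (32.7%, CpG-matched 15.2). The members' 33.7% lay between the ligands and the Hox genes, and all these intervals overlap that of the members.

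The bound share of members also differed with CpG content, as it did over all genes. A promoter is called CpG-rich here when its CpG ratio reached 0.6 or more and its GC content 50% or more. Of 54 members with such a promoter, 24 were bound (44.4%), against a background of 44.1%. Of the 32 others, 5 were bound (15.6%), against a background of 8.08%. The median CpG ratio was 0.764 in bound and 0.623 in unbound members, and the ranges overlapped widely, from 0.251 upwards in bound members and up to 0.996 in unbound ones.

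**Figure D2:**
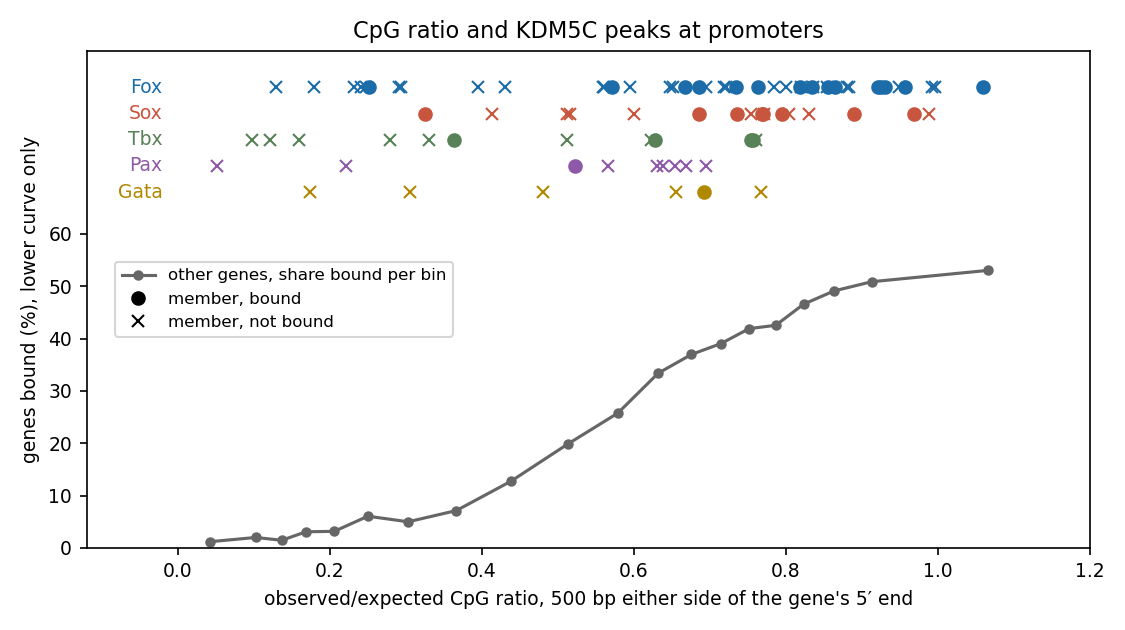
CpG ratio of each member's promoter (horizontal axis, observed over expected, upper rows by family; filled circles bound, crosses not bound) above the share of other genes bound in each of 20 bins of CpG ratio (grey line, %). The share of other genes rises from 1.17% in the lowest bin to 53.0% in the highest, and bound and unbound members overlap over most of the range.

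The 5 bound members with a ratio under 0.6 at the 5′ end were Foxk2 (0.251), Sox10 (0.325), Tbx15 (0.364), Pax5 (0.522) and Foxa2 (0.571). Each of them has more than 1 annotated TSS. Foxk2, a forkhead factor of broad expression, has 5 TSSs, and its peak, of score 58, lay 257 bp upstream of an internal one. Sox10, a neural crest and glial factor, had a peak of score 49 whose summit was 761 bp downstream of the TSS at its 5′ end. Tbx15, a factor of limb and craniofacial mesenchyme, had a peak of score 37 at 189 bp downstream of an internal TSS. In these 3 genes, then, the promoter at the gene's 5′ end was poor in CG. The peak lay near an internal TSS in Foxk2 and Tbx15, and near the 5′ end itself in Sox10.

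The 6 unbound members of highest CpG ratio were Foxk1 (0.996), Foxc2 (0.993), Sox12 (0.989), Foxc1 (0.948), Foxm1 (0.883) and Foxa1 (0.880). Foxm1, a factor of proliferating cells, and Foxa1, a pioneer factor of endoderm, had their nearest peaks 53846 and 30057 bp away. Foxk1 and Sox12 had theirs 33867 and 16605 bp away. Of the 7 members in the highest CpG bin, 3 were bound (Foxj3, Foxo1 and Sox11), against 53.0% of other genes there. All 4 in the bin below it were bound (Foxl2, Foxn2, Foxo6 and Sox30), against 50.9% of other genes. Members of high CpG ratio were thus found both with and without a called peak, as were other genes in these bins.

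The peaks at bound members were weaker than those at other bound genes. The deposited score of a peak is 10 times the −log10 of its q-value, and each gene is given here by its highest peak. The median score was 53 in the 29 members (quartiles 37 and 89, order-statistic 95% interval of the median 40 to 88) and 91 in other bound genes (quartiles 53 and 178). Of the 29, 22 lay below the median of other bound genes. Within their own CpG bin, 23 of the 29 scored below the median of the other bound genes, and their median percentile there was 29.1. The lower scores were therefore also seen against promoters of similar CpG ratio. Fold enrichment over input had a median of 3.43 in members and 3.78 in other bound genes, and median peak width was 548 bp in both.

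At stricter limits the members' share was below that of other genes, but on small counts for which no interval was taken. With peaks at or above the WT median score, 82, 9 members were bound (10.5%), against a background of 13.0% and a CpG-matched count of 14.4. At or above the WT 90th percentile, a score of 320, 2 were bound (2.33%, background 2.80%, CpG-matched 3.18). With a fold enrichment of at least 4, 8 were bound (9.30%, CpG-matched 11.7), against a background of 10.5%. Other developmental groups had similar medians, with 58 for Hox genes, 54 for the other homeobox genes and 64 for the ligands. By family the medians were 53 in Fox, 83.5 in Sox and 48.5 in Tbx.

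**Figure D3:**
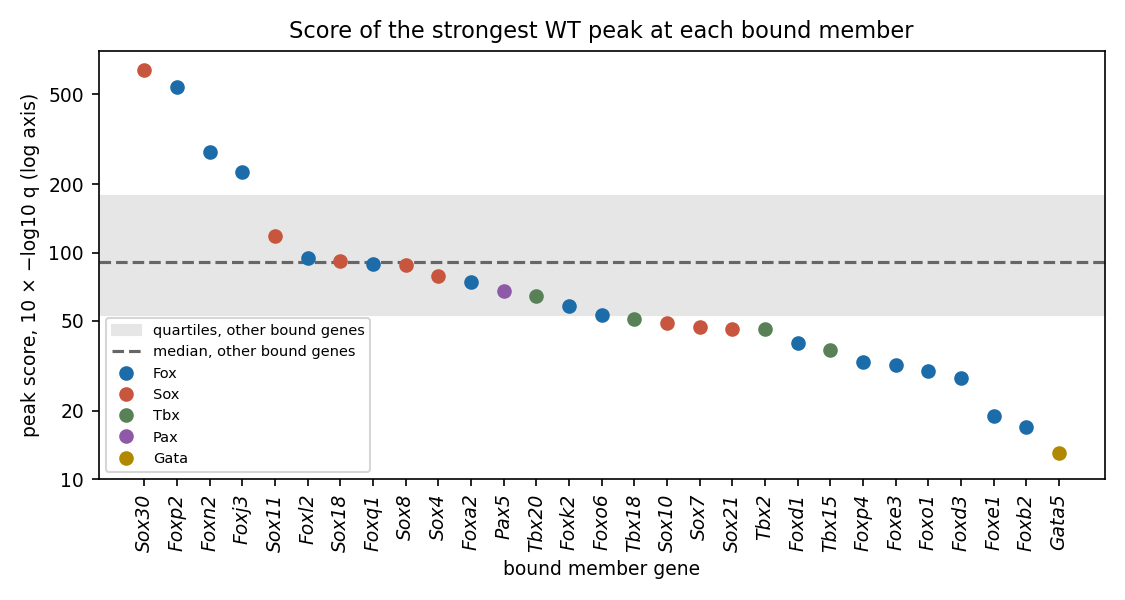
Score of the highest WT peak at each of the 29 bound members (points, coloured by family; vertical log axis, 10 times −log10 q). The dashed line is the median of other bound genes, 91, and the grey band their quartiles, 53 and 178; Sox30, Foxp2, Foxn2 and Foxj3 lie above the band and 22 members lie below the line.

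Only 4 members exceeded the upper quartile of other bound genes. Sox30, which encodes a factor of spermatogenesis, had the highest score, 641, with a 13.0-fold enrichment and rank 215 in the WT list. Its peak (chr11:45793313-45794567) was 1255 bp wide with a summit 198 bp upstream of the TSS. Foxp2, known for its part in speech and brain development, followed with a score of 538, a 12.04-fold enrichment and rank 301. Its peak (chr6:14851180-14851851) had a summit 46 bp downstream of one of 15 TSSs, in a UTR. The next member by score, Foxn2, was well below these 2, at 277.

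Foxn2 had peaks on both sides of its TSS, the stronger (6.10-fold) with a summit 394 bp upstream and a weaker one, of score 155, 908 bp downstream in an intron. Foxj3 had a peak of score 228 (5.25-fold) 253 bp upstream, and a TSS of the gene AA415398 lay 282 bp from that peak's midpoint. Among the scores of other bound genes, Foxp2 and Sox30 stood at percentiles 94.7 and 96.0, Foxn2 at 86.1 and Foxj3 at 81.5. Without these 4 genes the median score of the remaining 25 bound members was 49.

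The members next in score, a group set by rank alone, lay around the median of other bound genes, 91. Sox11, a SoxC gene of neuronal differentiation with a single exon, had a score of 118 and the widest member peak, 1989 bp (chr12:28026210-28028198). Sox4, also SoxC, had 79. Foxl2, which maintains granulosa cells of the ovary, had 95, Sox18, a gene of blood and lymphatic vessels, had 92, and Sox8, a SoxE gene of testis and neural crest, had 88. Foxq1 had a score of 89 with its summit 3 bp from the TSS. Foxa2, a pioneer factor of endoderm and floor plate, had 74. Pax5, which commits cells to the B lineage, had peaks of score 68 and 59 near internal TSSs. These genes spanned scores from 68 to 118, which is within the quartiles of other bound genes.

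The other 17 bound members ranged from 64 at Tbx20, a heart factor, down to 13 at Gata5, a factor of heart and endoderm. Gata5's peak ranked 6844 of the 6916, with a 2.29-fold enrichment. The forkhead genes Foxb2 (17), Foxe1 (19) and Foxd3 (28), the last a factor of pluripotent cells and neural crest, were also near the lower limit of the list.

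Member peaks lay farther from the TSS than those of other bound genes, and more often in coding sequence. The median distance from summit to nearest TSS of the gene was 277 bp in members and 164 bp in other bound genes, regardless of side. It was 374 bp in bound Hox genes and 223 bp in the other bound homeobox genes, so the distance was not particular to the members, while in bound ligand genes it was 138 bp. Summits were downstream of the TSS in 19 of 29 members (65.5%) and in 60.4% of other bound genes. In 13 of 29 members (44.8%) the summit fell in a coding exon, against 22.5% of other bound genes, while it fell in an intron in 2 members (6.90%) against 21.3%. The shares in UTRs (24.1 and 25.6%) and outside the gene (24.1 and 28.8%) were closer.

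Gene structure moved with this position. Single-exon genes are those whose annotated exons merge into 1 block. Among bound single-exon genes the summit was in a coding exon in 6 of 10 members and in 56.6% of others. Among bound genes with introns it was so in 7 of 19 members (36.8%) and in 20.7% of others. The difference was thus seen in genes with introns, on 7 of 19 members and without an interval. The single-exon members lay close to other single-exon genes. The part that gene structure has in the position was not tested further.

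Single-exon members were also bound more often. Of 17 such members, 10 were bound (58.8%), against 19 of 69 with introns (27.5%). The bound ones were Foxb2, Foxd1, Foxd3, Foxe1, Foxe3, Foxl2, Foxq1, Sox4, Sox11 and Sox21. With CpG bins taken within single-exon genes and within genes with introns, the matched counts were 7.92 and 19.9. Among CpG-rich promoters, single-exon genes outside the families were bound in 57.4% of 413 cases and genes with introns in 43.5% of 9372, against 10 of 14 and 14 of 40 (35.0%) in the members. By number of annotated TSSs, without matching for CpG ratio, members with 1 TSS were bound in 16 of 39 cases (41.0%), against 16.1% of other genes with 1 TSS, and members with several in 13 of 47 (27.7%), against 30.1%. With CpG bins taken within classes of TSS number the matched count was 27.5, against the 29 counted. Pax6, with 29 annotated TSSs, was not bound.

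Several unbound Fox genes had peaks just past the 1 kb limit. Among the 57 unbound members, 6 (10.5%) had a WT peak midpoint 1 to 2 kb from a TSS, against a background of 1.43% of unbound genes (1.40% without the members). All 6 are Fox genes, among them Foxb1, Foxc1, Foxc2, Foxd2 and Foxo3. Among unbound genes with a CpG-rich promoter, the counts were 5 of 30 members against a background of 1.87%, or 1.79% of the 5467 others. With a limit of 2 kb, 21 of the 42 Fox genes (50.0%) had a peak, against a CpG-matched count of 14.8, and with 5 kb also 21, against 15.6. Over all families, a limit of 2 kb gave 35 bound members (40.7%), against a background of 25.1% and a CpG-matched count of 27.5, and a limit of 5 kb gave 37 (43.0%), against 27.1% and 29.2. With a limit of 500 bp the count was 23 (26.7%), against 21.8% and 24.2.

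**Figure D4:**
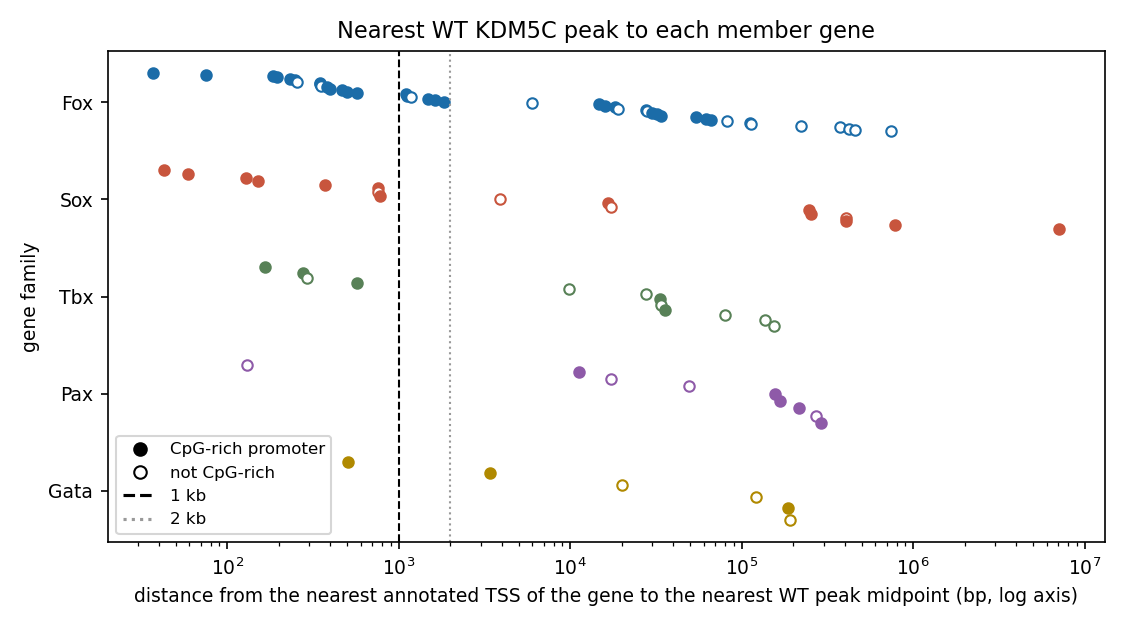
Distance (bp, log axis) from each member's nearest TSS to the nearest WT peak midpoint, by family; filled circles have a CpG-rich promoter and open circles do not. Lines mark 1 kb and 2 kb, and 6 Fox genes lie between them with none of the other families there.

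On the near side of the limit, the 3 bound members with the farthest nearest peak were Sox18 (776 bp, score 92), Sox10 (758 bp, score 49) and Sox4 (755 bp, score 79). Beyond it, the closest were at Foxb1, a gene of diencephalon and mammillary body (1107 bp, score 44), and Foxd2 (1112 bp, score 25). Sox10's score was thus close to that of Foxb1 across the limit, while those of Sox18 and Sox4 were higher.

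The Foxb1 peak lay in a coding exon. The stretch around its summit (chr9:69607551-69607750, minus strand), shown because it is the nearest outside the limit and chosen after its values were seen, held 23 CG dinucleotides in 200 bp.
Foxb1: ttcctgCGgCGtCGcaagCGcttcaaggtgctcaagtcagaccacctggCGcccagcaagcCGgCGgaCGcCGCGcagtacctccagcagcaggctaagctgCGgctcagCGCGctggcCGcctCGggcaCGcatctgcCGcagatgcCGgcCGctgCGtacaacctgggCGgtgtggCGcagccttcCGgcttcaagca

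The summits of the peaks at Foxc1 (score 24, 1601 bp downstream), Foxc2 (29, 1575 bp) and Foxd2 (25, 950 bp, with the midpoint farther out) also lay in coding exons. Foxc1 and Foxc2 act together in mesoderm and vessels, and both had promoters among the richest in CG without a peak within 1 kb. Foxo3, a factor of the insulin and stress response, had 4 peaks, at 1474 bp upstream (score 121) and at 1513, 2579 and 79108 bp downstream (107, 25 and 29). Of the peaks named here, only the Foxo3 pair of scores 121 and 107 exceeded the WT median of 82.

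Farther out, Gata2, a factor of blood stem cells, had a strong peak, of score 307, 3399 bp upstream (chr6:88140089-88140884). That score was above those of all bound members but Sox30 and Foxp2. Sox17, a gene of endoderm, had one of score 42 at 3898 bp in a coding exon. Foxn1 and Pax7 had peaks within the gene body, of scores 21 and 35, at 27775 and 11299 bp from the TSS. Bound members likewise had further peaks, at Pax5 (135, 2921 bp upstream), Foxo1 (78, 1572 bp downstream), Tbx2 (71, 2480 bp upstream), Foxq1 (46, 1618 bp downstream) and Foxe1 (34, 1651 bp downstream). At each of these genes but Foxq1 the outer peak scored higher than the one within 1 kb.

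The remaining unbound members had no called peak within 5 kb or in the gene body. The median distance to the nearest peak over all 57 was 49034 bp, and in 23 it exceeded 100 kb. They were, among Fox genes, Foxa1, Foxa3, Foxd4, Foxf2, Foxh1, Foxi1, Foxi2, Foxi3, Foxj1, Foxj2, Foxk1, Foxm1, Foxn3, Foxn4, Foxo4, Foxp1, Foxp3, Foxr1, Foxr2 and Foxs1. Among Sox genes they were Sox3, Sox5, Sox6, Sox9, Sox12, Sox13, Sox14 and Sox15. Among Tbx genes they were Tbx1, Tbx4, Tbx5, Tbx6, Tbx10, Tbx19, Tbx21 and Tbx22, and among Gata and Pax genes Gata1, Gata3, Gata4, Gata6, Pax1, Pax2, Pax3, Pax4, Pax6, Pax8 and Pax9. Sox9, of cartilage and testis, had its nearest peak 780846 bp away, although its CpG ratio was 0.804.

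Some subfamilies of close paralogs held both bound and unbound genes. Of the SoxC genes Sox4 and Sox11 were bound and Sox12 was not (CpG-matched 1.49). Of SoxE Sox8 and Sox10 were bound and Sox9 was not (CpG-matched 0.845). Of SoxF Sox7 and Sox18 were bound and Sox17 was not (0.978). The SoxD genes Sox5, Sox6 and Sox13 were all unbound (CpG-matched 1.04). Among forkhead genes both Foxe genes were bound (CpG-matched 0.788), and both Foxc (1.06) and all 3 Foxi genes (0.773) were not. Foxd, Foxo and Foxp had 2 of 4 each, against CpG-matched counts of 1.44, 1.89 and 1.08. In the Tbx1 group 3 of 6 were bound, Tbx15, Tbx18 and Tbx20 (CpG-matched 1.21). Of Tbx2, Tbx4 and Tbx5 only Tbx2 was (0.631). With 1 to 6 genes each, these counts are a description and set no subfamily apart.

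Lists by tissue, written from general knowledge, gave no group without a bound gene. Of 8 endoderm genes 3 were bound (Foxa2, Sox7 and Gata5, CpG-matched 2.29), of 10 genes of neural plate and brain 4 were (Foxd1, Sox4, Sox11 and Sox21, matched 3.79), and of 6 neural crest genes 3 were (Foxd3, Sox8 and Sox10, matched 2.01). Of 12 genes of mesoderm, heart and limb 4 were bound (Tbx2, Tbx15, Tbx18 and Tbx20, matched 3.42), and of 15 widely expressed genes 6 were (Foxj3, Foxk2, Foxn2, Foxo1, Foxp4 and Sox4, matched 5.92). Germ line and gonad had 3 of 8 (Sox30, Foxl2 and Sox8, matched 2.39), and blood and immune genes 1 of 7 (Pax5, matched 1.38). Some genes are on more than 1 list. Each count was within 1 gene of its CpG-matched count, so no tissue stood out.

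The 6 X-linked members were Foxo4, Foxp3, Foxr2, Gata1, Sox3 and Tbx22, and 0 of them were bound (interval up to 45.9%, CpG-matched 1.00). Of all protein-coding genes on the X chromosome, 8.52% were bound, and of those with CpG-rich promoters 27.1%. The CpG bins span all chromosomes and gave a matched 157 for all X-linked genes, against 79 bound. The matched count therefore runs high for this chromosome. Of the 6, 2 had CpG-rich promoters, Foxo4 (0.721) and Sox3 (0.830). Sox3, a SoxB1 gene of neural progenitors, had its nearest peak 7126537 bp away. With so few genes the absence does not set X-linked members apart from the rest of the chromosome. All 29 bound members were among the 80 autosomal ones.

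In KO cells no member carried a called peak. The number of members with a KO peak midpoint within 1 kb of a TSS was 0, and within 5 kb it was also 0, against a background of 0.0945% of protein-coding genes (21 genes) within 1 kb. Of the 32 distinct WT peaks within 1 kb of the 29 bound members, 0 overlapped a KO peak. The KO list held only 44 peaks in all, and its peak names and the study's methods give 1 KO sample, so the lack of a called peak does not show that signal was absent.

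Several member peaks have another gene close by. At Foxl2 and Tbx2, the highest peak was nearer to the TSS of another gene, Foxl2os (64 bp against 233 bp from the midpoint) and 2610027K06Rik (50 bp against 278 bp). Leaving out peaks nearer to another gene's TSS gave 27 bound members. A peak cannot be assigned to 1 gene of such a pair from these lists.

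CpG-rich stretches around the members' promoters were more spread in length than those of other genes. The CpG-rich stretch around the 5′ end, found with a 200 bp window moved in steps of 50 bp, had a median length of 1000 bp in CpG-rich members (quartiles 512.5 and 1387.5 bp) and 850 bp in other CpG-rich genes (650 and 1050 bp). In the 24 bound members with a CpG-rich promoter the median was 1250 bp (quartiles 637.5 and 1650 bp), against 850 bp (700 and 1100 bp) in other such bound genes. In unbound CpG-rich members it was 850 bp, against 800 bp in other such genes. The upper quartiles were thus higher in members and the lower quartiles lower. The sequence under the peaks of all 29 bound members had a median CpG ratio of 0.901, against 0.834 in other bound genes.

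Motifs were counted within 150 bp of each summit on both strands. The E-box CACGTG was present at 3 of 32 member peaks (9.38%), those of Foxn2 (the downstream one), Foxp4 and Sox8, against 19.0% of 5032 other promoter peaks and 35.9% of the 551 of these that reached the WT 90th percentile of score. TCCCGC, of the type that E2F factors bind, was present at 18 of 32 (56.3%), against 45.6% of other promoter peaks and 49.0% of the strongest. Peaks at bound members scored lower than those at other bound genes, and the motif counts were not matched for score or base composition. With no interval taken either, a lack or excess of a motif at members cannot be read from them. A match is a string of letters and not a site in use. The E-box reads alike on both strands, and matches to the different motifs can share at most 1 end letter.

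Relatives outside the symbol rule gave a further view of the families. Of the T-box genes with other names, Mga, which also carries a helix-loop-helix domain, was bound with a score of 836, an 11.0-fold enrichment and rank 116, and a summit 172 bp past the TSS. That score was higher than those of all 29 bound members. T (Brachyury), Eomes and Tbr1 were not bound, with nearest peaks 29987, 232855 and 5638 bp away. The Gata cofactors Zfpm1 and Zfpm2 were not bound either, with nearest peaks 2203 and 176877 bp away. Foxf1a was also not bound, and its nearest peak was 33324 bp away. Adding Sox2 and Tbx3 back gave 31 bound of 88 (35.2%).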

How the data were processed

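KDM5C ChIP-Seq peaks of WT and KO cells were used as deposited. According to the submitters' processing notes, the tools included Bowtie 1.1.2 and MACS2 2.1.0.20140616 (the study's methods name another Bowtie version). Single-end reads were aligned to mm9, uniquely mapped reads were kept, and peaks were called against input at q below 0.1, by the study's methods on replicates for WT and on 1 sample for KO, while other sources speak of duplicates. Unique mapping can lose peaks in repeated sequence, and calling on replicates can give the WT list more power. In the lists the authors deposited for each peak a score (10 times −log10 q, decimals dropped), a fold enrichment (a ratio of IP over input) and a −log10 q-value, beside a −log10 p-value that was not used. Scores, folds and −log10 q-values were used to rank and filter peaks within the WT list. Input samples entered only through the authors' peak calls.

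Here, peaks on assembled chromosomes were assigned to protein-coding GENCODE M1 symbols with Python 3.11.15, NumPy 2.4.6, SciPy 1.17.1, pandas 2.3.3 and pyfaidx 0.9.0.4. Gene entries of 1 symbol on 1 chromosome were merged (Sox4 had 2). The members, lists and named genes were chosen with earlier results of these data known. Genes named with values were the 12 highest-scoring bound members, bound members with a CpG ratio under 0.6, the 6 unbound members of highest CpG ratio, the 3 members nearest the 1 kb limit on each side, unbound members with a peak in the gene body, X-linked members and any member with a KO peak. A gene that this rule also names is not reported here. The assignment was tested on simulated data over 22225 genes: 200 of 200 peaks planted within 1 kb were recovered and 0 of 200 planted beyond were called. Alternatives changed the distance limit, the anchor point of the peak, the TSS set, the peak threshold, the CpG matching and the membership.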

Additional observations from a re-analysis of the deposited data

How the results depend on the processing

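Over 77 alternatives for 12 results, 52 values stayed close and 25 moved. Counts and shares have no sign, but the order of members and comparison changed with peak strength, distance limit and matching. With all peaks, the 1 kb limit and CpG bins, members were above the CpG-matched count and the share of other genes. They were below both at each stricter threshold of peak strength. The stricter counts are small and carry no interval, so a reversal cannot be read from them. GC bins gave a matched count of 29.5, just above the 29 counted. Within 500 bp, 23 members were bound against a matched 24.2. With scores at or above the WT median, members bound fell from 29 to 9 (10.5%, CpG-matched 14.4), with 5 Fox, 4 Sox, 0 Tbx, 0 Pax and 0 Gata genes, and other genes to 13.0%. At the WT 90th percentile 2 members remained (2.33%, matched 3.18, others 2.81%), and at a fold of at least 4, 8 members (9.30%, matched 11.7, others 10.6%). Within 500 bp, 5 Sox and 0 Gata genes and 21.8% of other genes were bound. Within 2 kb 35 members (matched 27.5) and 25.1% of other genes were bound. Within 5 kb it was 37 members (matched 29.2), with 2 Gata genes, and 27.0% of other genes. Other genes bound came to 22.0% from the gene's 5′ end alone and to 21.2% without peaks nearer another gene. The members bound came to 30 with the summit in place of the midpoint, 31 with any overlap and 25 from the 5′ end alone. CpG bins within single-exon genes and genes with introns, chosen after seeing the data, gave a matched count of 27.8. No paired analysis was possible because with a single peak list for WT and another for KO there are no numbered replicates to pair. Depth per peak could not be weighed, since the lists hold no reads.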
